A study of Mus musculus with 4 samples.

Results

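The genes described here are 39 genes that drive or restrain the cell division cycle, taken from the 23740 genes that the arrays name. They were chosen by symbol. They comprise 8 genes of G1 cyclins and their kinases, 9 genes of S phase, 13 of mitosis, 5 inhibitors of cyclin-dependent kinases, and the Rb family with E2f1, another 4 genes. All 39 have a probe set, of which 38 are named in the platform annotation and Ccnb1 was named through its Entrez number in RefSeq. RNA came from airway smooth muscle cells sorted from lungs of adult Acta2-hrGFP;Cspg4-DsRED mice. These mice express a green reporter from the Acta2 promoter, which is active in smooth muscle, and a red one from the Cspg4 promoter, which is active in pericytes. The sort kept hrGFP+ cells without DsRED. Each of the 4 groups is 1 array of RNA pooled from 3 mice. VAS mice were fed normal chow holding vitamin A at 15 IU/g. VAD mice were fed chow that lacked it, at under 0.1 IU/g, for 3 days by one statement of the labels and 5 by another. CTR mice ate a powdered sufficient diet with corn oil for 3 days. BMS mice ate that powder for 3 days with the pan-RAR antagonist BMS, which blocks the retinoic acid receptors, at 5 mcg/g. All 4 groups carried both reporters. With 1 array per group there is no spread between mice to set a difference against, so "higher" and "lower" describe these pools only.

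A cell leaves rest when mitogens raise D-type cyclins, which activate Cdk4 and Cdk6. These kinases phosphorylate Rb and its relatives, freeing E2F factors that switch on the genes of DNA replication, and a later wave led by cyclin B and Cdk1 drives mitosis. Inhibitors of the Cip/Kip and Ink4 families hold these kinases in check. Smooth muscle of the adult airway is mostly at rest, and retinoic acid is known to restrain cell division in many cell types. Transcripts of the later waves are shared out by cell cycle phase, so that in bulk RNA they follow the share of dividing cells of any type.

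Some promoters of these genes carry motifs known for that timing, and 3 are shown because they hold the E2F site of replication genes or the CHR and CCAAT boxes of mitosis genes. The 3 genes were chosen after their values were seen, among those at least 0.32 apart on the log2 scale in one of the comparisons below. Each sequence runs from 150 bases before the start of transcription to 20 bases after it, on the gene's own strand, from RefSeq on GRCm38.p6. Mcm6 encodes a subunit of the replicative helicase and lies on the minus strand at chr1:128359686-128359855. Cdc20, the activator of the anaphase-promoting complex, lies on the minus strand at chr4:118437324-118437493. Ccnb2, cyclin B2, lies on the minus strand at chr9:70421535-70421704. Capitals mark matches to E2F, CHR or CCAAT letters on either strand.
Mcm6: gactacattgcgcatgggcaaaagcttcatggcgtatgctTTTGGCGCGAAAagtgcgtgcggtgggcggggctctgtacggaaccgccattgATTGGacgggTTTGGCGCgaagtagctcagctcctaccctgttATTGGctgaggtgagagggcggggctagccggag
Cdc20: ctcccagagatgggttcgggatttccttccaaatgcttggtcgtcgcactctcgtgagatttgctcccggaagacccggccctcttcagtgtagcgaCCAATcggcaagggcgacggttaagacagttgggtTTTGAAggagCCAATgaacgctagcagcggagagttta
Ccnb2: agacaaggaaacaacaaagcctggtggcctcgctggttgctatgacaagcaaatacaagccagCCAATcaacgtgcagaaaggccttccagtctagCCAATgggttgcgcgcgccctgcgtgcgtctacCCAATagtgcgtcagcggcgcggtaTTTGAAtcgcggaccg
The E2F letters searched were TTTGGCGC, TTTGCCGC, TTTCGCGC and TTTCCCGC, the CHR letters TTTGAA and the CCAAT letters CCAAT, all on both strands. In Mcm6, 2 overlapping E2F matches begin 110 and 106 bases before the start, and another begins 47 bases before it. In Cdc20, the CHR match begins 18 bases before the start and the CCAAT matches 53 and 8 bases before it. In Ccnb2, 3 CCAAT matches begin 87, 54 and 21 bases before the start, and the CHR match shown lies just after it.

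Of the 39 genes, 31 have a promoter in the table, and all windows searched were 300 bases long. These 31 genes have 36 promoters, and a gene was counted when any of its promoters matched. The shares of all promoters set beside these counts are per promoter, not per gene. An E2F match was found in 4 of 8 S phase genes with a promoter, Mcm3, Mcm5, Mcm6 and Mcm7, and in 1 of 11 mitosis genes, Cdk1. Of all 32851 promoters, 2.26% hold one. A CHR match was found in 8 of the 11 mitosis genes and in 1 of the 8 S phase genes, against 17.9% of all promoters. A CCAAT match was found in 10 of the 11 mitosis genes and in 7 of the 8 S phase genes, against 37.4%. The direct repeat that retinoic acid receptors bind (DR5) was searched as AGGTCA or AGTTCA repeated in the same orientation 5 bases apart. Among the other groups, E2F letters were in 1 of 5 G1 genes, 1 of 4 Cdk inhibitors and 1 of 3 of the Rb family with E2f1, and CHR letters in 0, 0 and 1 of them. Over all 31 genes, 8 held E2F letters, 10 CHR and 22 CCAAT. The DR5 repeat was in none of the 31 genes and in 0.0335% of all promoters. A match describes letters in a window, and none of these counts says which factor binds.

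No cell cycle gene differed by 1.5-fold in either experiment or between the controls. Levels are log2 values, so 1.5-fold is a difference of 0.58. The filter on low values kept the 12693 genes with at least 1 array at 6.07, the median over named genes. Of the 39 genes, 28 passed this filter and 11 lay below it on all 4 arrays. Each of the 28 lay at or above it on all 4 arrays, so none passed through 1 group alone. Among the 28, 0 were 1.5-fold apart in VAD minus VAS, against 3.57% of all genes past the filter. In BMS minus CTR 0 were, against 4.99%, and in CTR minus VAS 0 were, against 8.53%. Among 28 genes such shares amount to very few, so a count of 0 lies near the background. The lowest to highest value of a gene over the 4 arrays spanned from 0.09 to 0.72, with a median of 0.34 over the 39 genes and 0.31 over all named genes. Across the experiments, Ccnd3 passed 1.5-fold in BMS minus VAS, with 0.66.

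**Figure D1:**
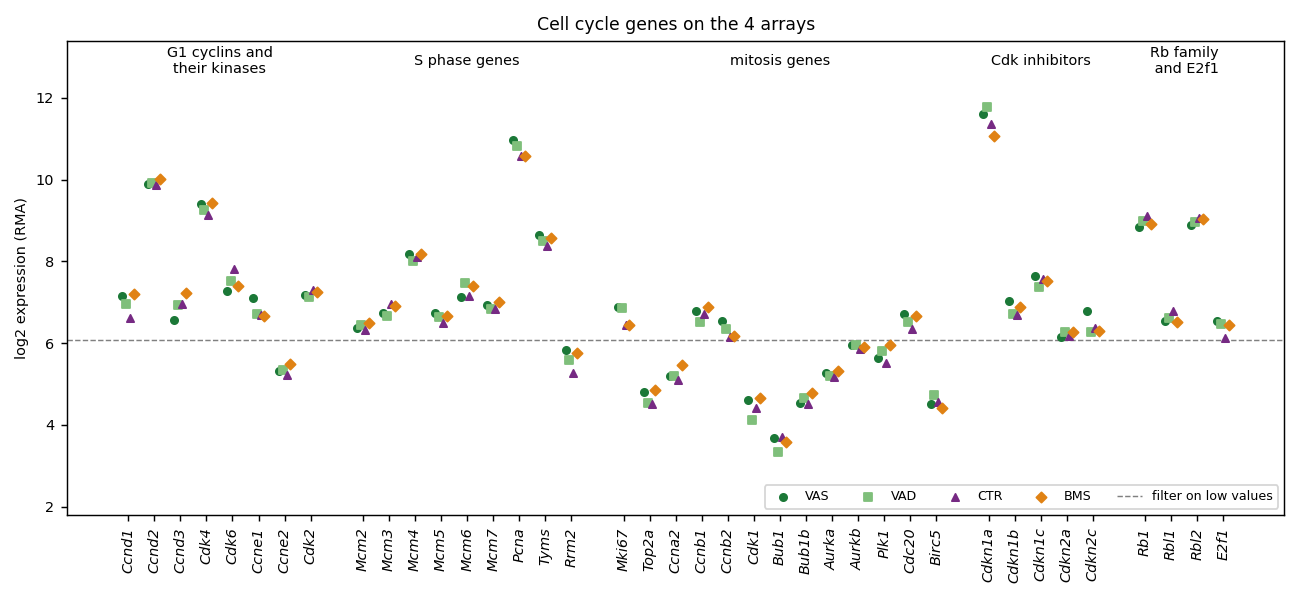
Log2 expression of the 39 cell cycle genes on the VAS, VAD, CTR and BMS arrays, 1 point per array, with the filter on low values at 6.07 as a dashed line. The 4 points of each gene lie close together, and 9 of 13 mitosis genes lie below the line on every array.

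The joint fit gave no call. limma was fitted to VAD and BMS against VAS and CTR with the experiment as a block, which leaves 1 residual degree of freedom per gene before moderation. It called 0 of 12693 genes at an adjusted p under 0.05, with 487 genes, 3.84%, at an unadjusted p under 0.05. None of the 28 cell cycle genes had an unadjusted p under 0.05. This fit has so little to estimate error from that a lack of calls does not show a lack of change.

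D-type cyclins link mitogen signals to the cycle. Ccnd1, cyclin D1 (Entrez 12443), stood at 7.16 in VAS, 6.96 in VAD, 6.63 in CTR and 7.20 in BMS. CTR was the low array. BMS therefore stood 1.49-fold above CTR, the widest BMS minus CTR difference among the 39 genes, and only 0.04 above VAS. Ccnd2, cyclin D2 (Entrez 12444), stood at 9.90, 9.91, 9.86 and 10.01 in VAS, VAD, CTR and BMS. It was nearly level over all 4 pools. Ccnd3, cyclin D3 (Entrez 12445), stood at 6.57 in VAS, 6.93 in VAD, 6.95 in CTR and 7.23 in BMS. Here VAS was the low array, so that VAD and CTR both stood about equally above it, by 0.36 and 0.38. Cyclins D1 and D3 thus placed different control pools lowest.

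Cdk4 and Cdk6 are the partners of the D-type cyclins. Cdk4 stood at 9.42 in VAS, 9.27 in VAD, 9.13 in CTR and 9.42 in BMS. Like Ccnd1, it was lowest in CTR and as high in BMS as in VAS. Cdk6 stood at 7.27 in VAS, 7.52 in VAD, 7.81 in CTR and 7.41 in BMS. CTR was its highest array, 0.54 above VAS and 0.40 above BMS. Cdk2, the kinase of cyclins E and A, stood at 7.17, 7.13, 7.30 and 7.26 in VAS, VAD, CTR and BMS. Its values spanned 0.16 in all. Ccne1, cyclin E1, stood at 7.11 in VAS and at 6.73, 6.68 and 6.67 in VAD, CTR and BMS. VAS was the array that stood apart from the other 3. Ccne2, cyclin E2, lay below the filter on every array, between 5.23 and 5.50.

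Most of the S phase and mitosis genes among the 39 were lowest in CTR, by small amounts. Over all 22 of these genes, whether past the filter or not, 14 had their lowest value in CTR, which is 63.6%, against 24.7% of all named genes. In BMS minus CTR 18 of 22 were above 0 with a median of 0.17, against 49% of all named genes above 0. In CTR minus VAS 18 of 22 were below 0 with a median of -0.11, against 49.8% of all named genes. Both comparisons use the CTR array, so they are not separate evidence. In BMS minus VAS, which leaves CTR out, 12 of 22 were above 0, with a median of 0.03, against 50% of all named genes. In VAD minus VAS 15 of 22 were below 0, with a median of -0.10, against 51.5%. Set against CTR in place of VAS, 17 of 22 were above 0 in VAD, against 47.8%. Genes of one cycle phase vary together, so these shares say less than they would for independent genes. These counts take in 10 genes that lay below the filter on all arrays, where values carry little signal. Of the 12 past it, 7 were lowest in CTR, against 27% of all genes past the filter, and of the other 10 also 7. Among the further genes described below, 11 of 39 replication genes and 27 of 66 mitosis genes were lowest in CTR. Past the filter, 8 of 25 and 7 of 20 of these further genes were, nearer the share of all genes. Of the 12, 10 were below 0 in VAD minus VAS, 10 above 0 in BMS minus CTR and 10 below 0 in CTR minus VAS. Of all genes past the filter, 48.4%, 51.6% and 49.5% were, in that order. Over these 12, the medians were -0.12, 0.16 and -0.17 in VAD minus VAS, BMS minus CTR and CTR minus VAS. In BMS minus VAS their median was -0.0066.

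**Figure D2:**
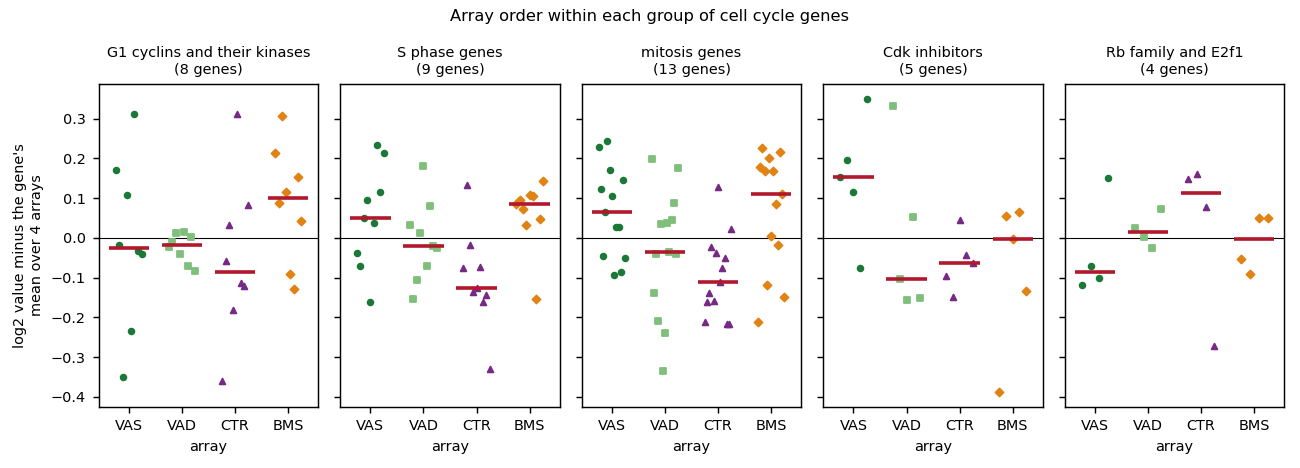
Each cell cycle gene's log2 value minus its own mean over the 4 arrays, by array and by group of genes, with 1 point per gene and a red bar at the median of the group. Genes below the filter are included. In the S phase and mitosis panels most CTR points lie below 0, while in the panel of the Rb family and E2f1 the 3 Rb family genes lie highest in CTR.

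Among the 9 S phase genes, Pcna, the sliding clamp of DNA polymerase, stood at 10.98 in VAS, 10.82 in VAD, 10.58 in CTR and 10.59 in BMS. Both arrays of the antagonist experiment were lower than both of the diet experiment, and BMS minus CTR was 0.01. The 6 Mcm genes, which encode the helicase, spanned from 0.16 to 0.34 over the arrays. Mcm6 stood at 7.12 in VAS, 7.47 in VAD, 7.16 in CTR and 7.39 in BMS. It was the one Mcm gene past 0.32, higher by 0.34 in VAD than in VAS and by 0.23 in BMS than in CTR. The E2F matches shown above lie in its promoter. Mcm3, Mcm5 and Mcm7, which hold E2F matches too, differed by -0.08, -0.08 and -0.11 in VAD minus VAS. Any link between the matches and these values was not tested. Tyms, thymidylate synthase, stood at 8.64, 8.51, 8.39 and 8.58 in VAS, VAD, CTR and BMS. Rrm2, the small subunit of ribonucleotide reductase, lay below the filter at 5.82, 5.58, 5.28 and 5.75. Its CTR value was the lowest, all 4 being below the filter, with the widest CTR minus VAS difference of the 39 genes downward, -0.54.

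Most of the mitosis genes lay in the range where an array tells little. Of 13, 9 were below the filter on all 4 arrays, which 46.5% of all named genes were. These 9 were Top2a, Ccna2, Cdk1, Bub1, Bub1b, Aurka, Aurkb, Plk1 and Birc5. They encode topoisomerase II alpha, cyclin A2, the mitotic kinase, checkpoint, Aurora and Polo-like kinases, and survivin. Their values ran from 3.34 to 5.96. Cdk1 stood at 4.62 in VAS, 4.12 in VAD, 4.41 in CTR and 4.65 in BMS. VAD was its low array, by 0.51 against VAS, the widest VAD minus VAS difference of the 39 genes; both values lie below the filter.

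The 4 mitosis genes past the filter were Mki67, Ccnb1, Ccnb2 and Cdc20. Mki67, which encodes the proliferation antigen Ki-67, stood at 6.89 in VAS, 6.86 in VAD, 6.45 in CTR and 6.45 in BMS. Its values separated the experiments and lay close together within each, with -0.03 in VAD minus VAS and -0.00010 in BMS minus CTR. Ccnb2 stood at 6.55, 6.34, 6.15 and 6.19 in VAS, VAD, CTR and BMS, so it too was lower in both arrays of the antagonist experiment. Cdc20 stood at 6.71, 6.52, 6.35 and 6.68, low in CTR and nearly as high in BMS as in VAS. Ccnb1, cyclin B1, stood at 6.79, 6.52, 6.70 and 6.90, with VAD lowest. The 3 promoters shown above thus belong to genes with 3 different array orders.

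Inhibitors of the kinases had no common order over the arrays. Cdkn1a, which encodes p21, a target of p53, stood at 11.61 in VAS, 11.79 in VAD, 11.36 in CTR and 11.07 in BMS. VAD was highest and BMS lowest, 0.72 apart, the widest span of any of the 39 genes. Within the experiments the differences had opposite signs, 0.18 in VAD minus VAS and -0.29 in BMS minus CTR. Cdkn1b, p27, which restrains cyclin E with Cdk2, stood at 7.02, 6.73, 6.68 and 6.88 in VAS, VAD, CTR and BMS. VAS was highest. Cdkn1c, p57, stood at 7.65, 7.38, 7.58 and 7.53, with VAD lowest.

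Ink4 inhibitors bind Cdk4 and Cdk6. Cdkn2a, whose locus makes both p16 and p19Arf, stood at 6.14 in VAS, 6.27 in VAD, 6.18 in CTR and 6.29 in BMS. These values lie just above the filter, and 1 probe set cannot tell the 2 products apart. Cdkn2c, p18, stood at 6.78 in VAS and at 6.28, 6.36 and 6.29 in VAD, CTR and BMS. As for Ccne1, VAS was the array apart, 0.50 above VAD and 0.41 above CTR. Over the 5 inhibitors the medians were -0.27, -0.05 and -0.25 in VAD minus VAS, BMS minus CTR and CTR minus VAS.

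Rb family genes encode the proteins that hold E2F in check. Rb1 stood at 8.85 in VAS, 8.995 in VAD, 9.12 in CTR and 8.92 in BMS. Rbl1, p107, stood at 6.55, 6.62, 6.78 and 6.53 in VAS, VAD, CTR and BMS. Rbl2, p130, the member typical of resting cells, stood at 8.89, 8.96, 9.07 and 9.04. All 3 were highest in CTR, by 0.27, 0.23 and 0.18 over VAS, and 26.6% of all genes past the filter were highest there. Of the 28 genes past the filter, 11 were highest in VAS, 2 in VAD, 6 in CTR and 9 in BMS. Of all genes past it, 26.6% were highest in VAS, 19.5% in VAD, 26.6% in CTR and 27.3% in BMS. E2f1, an E2F activator that is itself transcribed late in G1, stood at 6.55, 6.48, 6.13 and 6.45. CTR was its low array, 0.42 under VAS and 0.32 under BMS.

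At a lower threshold, a log2 difference of 0.32, the counts within each experiment lay near the share of all genes. In VAD minus VAS, Ccnd3 and Mcm6 were higher, 2 of 28 or 7.14%, against 8.15% of all genes past the filter. Ccne1 and Cdkn2c were lower, again 7.14%, against 8.42%. In BMS minus CTR, Ccnd1, Cdc20 and E2f1 were higher, 3 of 28 or 10.7%, against 10.4%, and Cdk6 was lower, 1 of 28 or 3.57%, against 8.37%. Between the controls more genes were lower. In CTR minus VAS, 9 of 28 were lower, 32.1% against 15.9%, and Ccnd3 and Cdk6 were higher, 7.14% against 14%. The 9 were Ccnd1, Ccne1, Pcna, Mki67, Ccnb2, Cdc20, Cdkn1b, Cdkn2c and E2f1, which include drivers and inhibitors alike. The median over the 28 genes was -0.08 in VAD minus VAS, 0.10 in BMS minus CTR and -0.10 in CTR minus VAS. Over all genes past the filter the medians were 0.0078, 0.0090 and 0.0024.

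**Figure D3:**
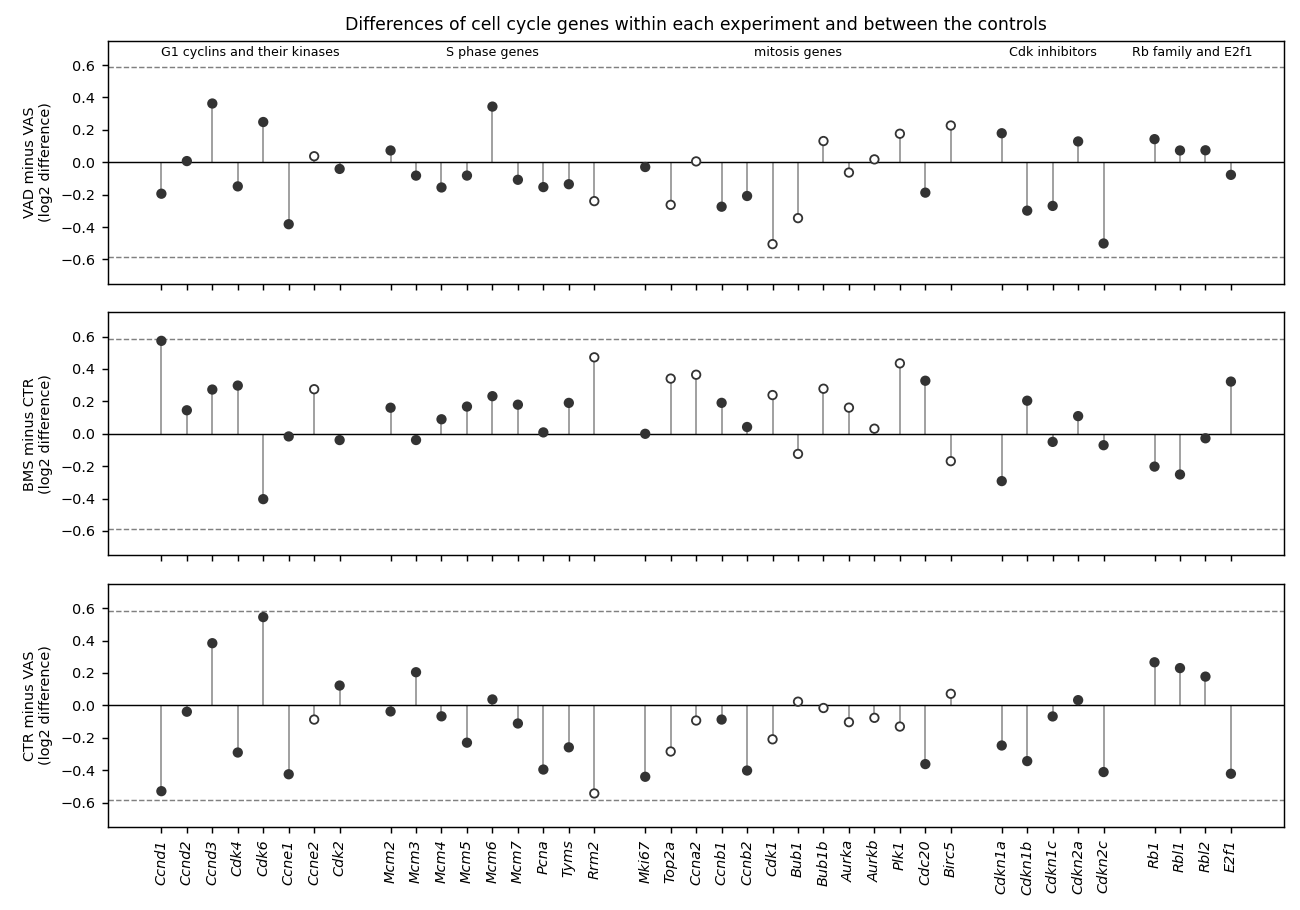
Log2 differences of the 39 cell cycle genes in VAD minus VAS, BMS minus CTR and CTR minus VAS, with filled points for the 28 genes past the filter, open points for the other 11, and dashed lines at 1.5-fold. All points lie inside the dashed lines, and Ccnd1 in BMS minus CTR comes closest, with 0.57.

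The choice of control decided many of the signs. With CTR in place of VAS, 17 of the 28 genes changed the sign of their VAD difference. With VAS in place of CTR, 12 of the 28 changed the sign of their BMS difference. The share of all genes that changed sign was not counted, so whether these counts are particular to the cell cycle genes is not known. VAS and CTR came from separate experiments with other chow and, in CTR, corn oil. The effects of these and of the pool of mice cannot be told apart.

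Further genes of the cycle were taken from pathway lists, and the values given are of the 2 genes past the filter with the widest difference in each direction. Some of them passed the filter on a few arrays only, so their counts and medians are partly set by it. Past the filter, 1.43% of all genes were 1.5-fold higher and 2.14% lower in VAD minus VAS, 3.13% higher and 1.86% lower in BMS minus CTR, and 2.62% higher and 5.91% lower in CTR minus VAS. Of 39 further replication genes, 25 passed the filter, 19 of them on all 4 arrays. None of the 25 was 1.5-fold apart in VAD minus VAS, 1 was lower in BMS minus CTR, and in CTR minus VAS 1 was higher and 3 were lower. Their medians were -0.08, -0.05 and -0.08 in that order. The lower gene in BMS was Pole2, a polymerase epsilon subunit, at 6.58 in VAS, 6.50 in VAD, 6.51 in CTR and 5.92, below the filter, in BMS. In BMS minus CTR 14 of the 25 were below 0, against 48.4% of all genes past the filter. Gmnn, geminin, which blocks relicensing of origins, stood at 5.86, 5.43, 6.20 and 5.67 in VAS, VAD, CTR and BMS. It passed the filter only through CTR, where it was highest, so its differences of -0.43 in VAD minus VAS and -0.53 in BMS minus CTR carry little. In VAD minus VAS, Lig1, DNA ligase 1, differed by -0.45, Rrm1, the large subunit of ribonucleotide reductase, by 0.34 and Rfc2, a clamp loader subunit, by 0.30. Within the antagonist experiment, Rfc3, another clamp loader subunit, differed by 0.34 and Pola2, of polymerase alpha, by 0.31. Between the controls, CTR minus VAS, Chaf1b, a histone chaperone subunit past the filter in VAS and VAD alone, differed by -0.70, the primase subunit Prim1 by -0.68, Rfc2 by 0.68 and Gmnn by 0.35.

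Of 66 further mitosis genes measured, 20 passed the filter, 14 of them on all 4 arrays. In VAD minus VAS 1 was 1.5-fold lower, Cks1b, which encodes a Cdk-binding subunit, at 7.95 in VAS and 7.25, 7.42 and 7.45 in VAD, CTR and BMS. VAS was again the array apart. Mybl2, a transcription factor of the cycle that passed the filter only in VAS, where it was highest, differed by -0.46. Stmn1, which destabilises microtubules, differed by 0.36 and Anln, a scaffold of cell division, by 0.35. In BMS minus CTR none was 1.5-fold apart. The widest was Foxm1, a transcription factor of mitosis genes, at 6.26, 6.29, 6.08 and 6.59 in VAS, VAD, CTR and BMS. The phosphatase genes Cdc25a and Cdc25b, whose products activate Cdks, differed by 0.27 and -0.30, and Stmn1 by -0.36. Cdc25a was past the filter in VAS and BMS alone. In CTR minus VAS 1 gene was 1.5-fold higher, Stmn1 with 0.68, and 3 were lower. Among the 3, Pttg1, securin, stood at 7.77 in VAS, 7.37 in VAD, 6.82 in CTR and 6.68 in BMS. It was lower in both arrays of the antagonist experiment, as Mki67 and Ccnb2 were. The condensin gene Smc4 differed by -0.73 and the checkpoint gene Mad2l1 by 0.43. The medians of the list were -0.12, 0.05 and -0.22.

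Of 31 further inhibitors and p53 targets, 28 passed the filter, 26 of them on all 4 arrays, with medians of 0.05, -0.0068 and -0.08. In VAD minus VAS 1 was 1.5-fold higher, Phlda3, a p53 target that restrains Akt, at 8.49 in VAS, 9.08 in VAD, 8.68 in CTR and 9.21 in BMS. It stood above the control in both experiments, by 0.59 and 0.53. Cdkn1a, also a p53 target, did not share this order. The stress gene Sesn2 differed by 0.50 in VAD minus VAS, Pmaip1, which encodes the death protein Noxa, by -0.46 and the kinase gene Plk2 by -0.33. Within the antagonist experiment, Btg1, an antiproliferative gene, differed by -0.41, Mdm2, the p53 ligase, by -0.17. Gas1, named for growth arrest, differed by 0.48, but it passed the filter only in BMS, where it was highest. In CTR minus VAS 1 gene was 1.5-fold lower, Plk2 with -0.74. Pmaip1 differed by -0.58 there, Sesn2 by 0.53 and Gadd45g, a stress gene, by 0.36.

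Of 37 measured E2F, DREAM and cyclin control genes, 30 passed the filter, 27 of them on all 4 arrays, with medians of -0.02, -0.02 and -0.0018. In VAD minus VAS none was 1.5-fold apart. Fbxo5, an inhibitor of the anaphase-promoting complex, differed by -0.55, Mnat1, of the Cdk-activating kinase, by -0.41, Mxd4, a Max partner, by 0.47 and Skp2, a ligase subunit that targets p27, by 0.26. Lower in BMS minus CTR was 1 gene, Lin52, a subunit of the DREAM complex, with -0.61. Ccnl1, cyclin L1, differed by -0.32, Mxd4 by 0.29 and Ccnh, the cyclin of the Cdk-activating kinase, by 0.27. Between the controls, CTR minus VAS, Mxd4 was 1.5-fold higher, with 0.60, and Mnat1 lower, with -0.60. Mybl1, below the filter in BMS, differed by -0.47 and Ambra1, which promotes loss of D-type cyclins, by 0.47. The joint limma fit called none of these genes at an adjusted p under 0.05.

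Markers of several other cell types differed between the arrays by more than the cell cycle genes did, most widely granulocyte and macrophage markers. Past the filter, the median spans of these were 2.21 and 1.01, against 0.32 for the cell cycle genes. Those of lymphocyte, fibroblast and alveolar epithelial markers past it were 0.96, 0.93 and 0.85. Over all measured genes, alveolar epithelial markers had a median span of 0.32, against 0.34 for the cell cycle genes. In bulk RNA, fewer cells of a type and less RNA per cell cannot be told apart. All 11 smooth muscle markers passed the filter, with Acta2 between 11.95 and 12.12 and Myh11 between 11.18 and 11.56. All 11 were above 0 in VAD minus VAS, with a median of 0.16, and all 11 below 0 in BMS minus CTR, with a median of -0.18. Of all genes past the filter, 51.5% and 48.4% were, in that order. The S phase and mitosis genes had medians of the opposite sign in both comparisons, and any link between these was not tested. The 9 of 14 measured macrophage and monocyte markers past the filter had mean values of 7.38 in VAS, 7.15 in VAD, 6.41 in CTR and 6.78 in BMS. In CTR minus VAS all 9 were below 0, with a median of -0.998, against 49.5% of all genes past the filter below 0, and 7 of 9 were higher in BMS than in CTR. Of these 9, 1 passed the filter only through VAS, and over all 14 measured, all below 0, the median was -0.63. Granulocyte markers, 4 of 7 past the filter and 2 on all 4 arrays, had means of 8.01, 8.14, 6.28 and 6.22 in VAS, VAD, CTR and BMS. Lymphocyte markers, 7 of 18 past the filter, had means of 7.40, 7.25, 7.03 and 7.02. Of these 7 lymphocyte markers, 3 passed the filter on all 4 arrays and 2 on 1 array only. Their means and counts are thus partly set by the filter. In CTR minus VAS 5 of these 7 were below 0, while Ighm and Cd3e, markers of B and T cells, differed by 0.79 and 0.36. Ptprc, the antigen of all leukocytes, stood at 7.47, 7.39, 5.97 and 6.21.

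The low CTR values of most of the 22 S phase and mitosis genes lay beside lower granulocyte and macrophage markers in that array. Mki67, Ccnb2 and Pcna were lower in both arrays of the antagonist experiment, as the means of these markers were. Mcm3 was higher in both, at 6.75 in VAS, 6.67 in VAD, 6.96 in CTR and 6.92 in BMS. The rest of the 12 S phase and mitosis genes past the filter did not separate the experiments. Granulocyte markers stayed low in BMS, with means of 6.28 in CTR and 6.22 in BMS. In BMS minus VAS the 22 S phase and mitosis genes had a median of 0.03, and those past the filter -0.0066. Past the filter, the 8 S phase genes had a median of 0.04 there, with 3 below 0. The 4 mitosis genes past it had -0.20, also with 3 below 0. Lymphocyte markers were mixed. Alveolar epithelial markers, 7 of 11 past the filter, had means of 7.67, 7.04, 6.55 and 6.87 in VAS, VAD, CTR and BMS, and fibroblast markers, all 13 past it, 9.94, 9.97, 9.48 and 10.20. Both means were lowest in CTR, but single genes varied. CTR held the lowest value of 3 of the 7 alveolar and 6 of the 13 fibroblast genes. Of all genes past the filter, 27% were lowest there. Among the 7 alveolar markers, 1 passed the filter on 1 array only. Pericyte markers, all 8 past it, had means of 9.06, 9.16, 9.52 and 9.30, highest in CTR. Endothelial markers, 9 of 10 past it, had means of 7.33, 7.46, 7.29 and 7.67, also lowest in CTR. Airway epithelial markers, 3 of 10 past it, had means of 6.14, 6.39, 6.26 and 6.22, and mesothelial markers, 2 of 4 past it, 6.36, 6.38, 6.03 and 6.05. Of the 2 mesothelial markers, 0 passed the filter on all 4 arrays, and none of 4 measured erythroid markers passed it at all. The part of these cells in the cell cycle values was not tested.

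**Figure D4:**
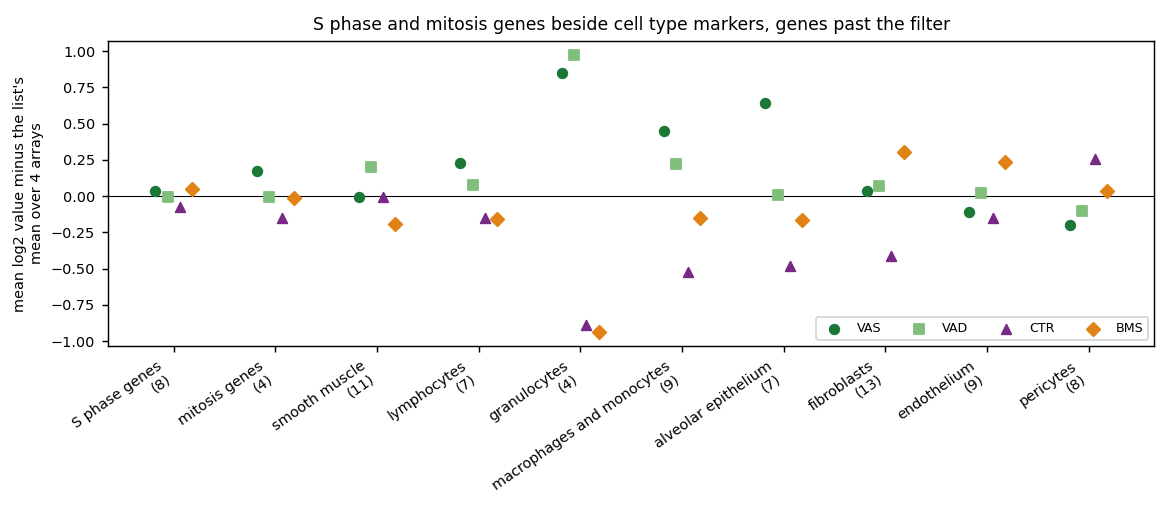
Mean log2 value of S phase and mitosis genes and of cell type markers on each array, minus the mean of the list over the 4 arrays, for genes past the filter with their number in parentheses. Granulocyte and macrophage markers spread far more widely over the arrays than S phase and mitosis genes do. The means of macrophage, alveolar epithelial, fibroblast and endothelial markers are lowest in CTR, as are those of S phase and mitosis genes.

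Across the arrays as a whole, medians of all probe sets lay between 5.97 and 6.02 and correlations between arrays, over genes, between 0.987 and 0.992. No array stood apart on either.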

How the data were processed

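RNA of sorted cells was measured on 4 Affymetrix arrays, 1 per group. The deposited values are log2 expression made by the authors with RMA (affy 1.36.1, R 2.15.1), per the submitters' processing notes, which would hide a shift common to most transcripts. The set of arrays normalized together and the genome build are not stated in what was used. With 1 array per group, the count of arrays limits precision. All 4 samples' values are pools, so no spread between mice is known.

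Of 25206 probe sets, 23185 were named by the platform annotation and 555 more by Entrez number in RefSeq (GRCm38.p6), leaving 1466 unnamed. Genes were kept where the highest of 4 values reached the median of named values, 6.07. Comparisons are differences of log2 values with no test. The joint test was limma 3.58.1 (R 4.3.3; lmFit, eBayes, Benjamini-Hochberg over all 12693 genes). Python 3.11.15, numpy 2.4.6, pandas 2.3.3 and matplotlib 3.10.9 were used. Steps were tested on simulated data. Alternatives covered the filter, normalization, control, fold threshold, limma settings, leaving out each array, and, chosen after seeing the data, platform-named genes only.

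The cell cycle genes and all lists were chosen with earlier results of these data known. By rule, array values are given for D-type cyclins, G1 kinases, Cdk inhibitors, the Rb family and E2f1, other members past 1.5-fold, and the 2 widest genes per direction and comparison of each pathway list. Array values of other genes were chosen after they were seen.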

Additional observations from a re-analysis of the deposited data

Results flagged for a closer look

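Of the 28 cell cycle genes past the filter, 2 differed in opposite directions in the 2 experiments by at least 1.5-fold between the differences, as 9.13% of all genes past the filter did. For Ccnd1, BMS minus CTR less VAD minus VAS was 0.77 on the log2 scale, from 0.57 and -0.19. For Cdk6 it was -0.65, from -0.40 and 0.25. Each experiment has 1 array per group, so the difference between the experiments was not tested for either gene.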

How the results depend on the processing

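The medians over the cell cycle genes were small and depended on the control and the filter. For VAD minus VAS, where the main value was -0.08, the median was 0.046 with CTR as the control, -0.0063 with the mean of both controls, and 0.0070 with a filter at the 75th percentile. For BMS minus CTR, where it was 0.10, it was 0.014 with VAS as the control, 0.058 with the mean of both controls, 0.16 with no filter and 0.0086 with the 75th percentile filter. The stricter filter leaves 9 of the genes, and the cause of the other changes was not tested. The counts of 0 genes past 1.5-fold became 1 in BMS with VAS as the control, and 4, 4 and 11 in VAD minus VAS, BMS minus CTR and CTR minus VAS at a log2 difference of 0.32. Quantile normalization again and cyclic loess changed the sign of a single gene's difference in 3 of 84 cases each, all with differences under 0.04 in size. limma called 0 genes under every alternative run, with 178 to 963 genes at an unadjusted p under 0.05, also when each array was left out, which was fitted without the block. The joint fit pairs VAD with VAS and BMS with CTR through the experiment block, and without that block limma also called 0 genes, with 235 at an unadjusted p under 0.05. The labels give no replicate numbers to pair by.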
